A study of Mus musculus with 10 samples.

Results

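Accessible chromatin was examined at 10 genes of the Notch pathway in adult mouse neural stem cell (NSC) cultures: the receptor genes Notch1, Notch2 and Notch3, the ligand genes Dll1, Dll3 and Jag1, the nuclear effector gene Rbpj and the target genes Hes1, Hes5 and Hey1. Every peak with its summit inside the annotated gene or within 50 kb of it was taken, which gave 1038 of the 759157 peaks listed over 10 ATAC-seq libraries. ATAC-seq inserts sequencing adapters into open DNA with a transposase, and a peak is a stretch where such insertions pile up. Peaks of different libraries that overlapped were merged into 159 regions at the Notch pathway genes, of 137454 in the genome. Of these, 131 had a peak in at least 2 libraries, 95 had one in at least 5 libraries and were tested, and 59 had one in all 10 libraries. The regions are numbered along the chromosome within each gene's window, so that Notch2:13 is the thirteenth at Notch2.

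The cultures came from the subependymal zone (SEZ), a germinal layer of the adult brain, of mice aged 10 weeks. Wild-type (WT) cells were compared with cells from mice lacking Cdkn1b, which encodes the cell cycle inhibitor p27 (p27KO, on a C57BL/6 J background). Proliferating cultures (PRO) were neurospheres taken at 3 days in vitro, fed EGF at 20 ng/ml and FGF at 10 ng/ml. Differentiating cultures (DIFF) had been plated on Matrigel for 2 days with FGF and then held for 24 h in medium with 2% serum and no mitogen. DIFF and PRO therefore differed in substrate and serum as well as in mitogens. WT gave 3 libraries in each condition and p27KO gave 2, all from 50000 cells. No source states whether replicates came from separate animals, so the p-values measure the spread between these cultures.

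Notch receptors are cut after binding Delta or Jagged ligands on a neighbouring cell, and the released intracellular domain enters the nucleus and joins the DNA-binding protein RBPJ to switch on target genes. Hes1, Hes5 and Hey1 encode repressors of the basic helix-loop-helix family that hold back neuronal genes. In the adult SEZ the pathway is known for keeping stem cells undifferentiated, and Hes1 is also known to oscillate in progenitors.

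Before the Notch genes were examined, the labels were compared with the files. The region over the Cdkn1b start site was listed in all 6 WT libraries and in 0 of the 4 from p27KO. Start sites of 7 of 7 neural stem and progenitor markers carried a peak in all 10 libraries, while Pecam1 of endothelial cells and Cx3cr1 and Ptprc of microglia had none in any library, and Dcx of neuroblasts had one in 1 library. Peaks at the start sites of 4 Y-linked genes followed the same split, 6 of 6 against 0 of 4, so sex and genotype cannot be told apart in any comparison between genotypes. The lists held between 57534 and 91801 peaks, with 88 to 119 at the Notch genes, or 0.13% to 0.153% of a list. The reads behind each list are not known here, and 4 of the 5 DIFF lists were shorter than every PRO list, so a missing peak is one not called at that depth.

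The sequences below come from regions described in the results. They are 300 bases of GRCm38 centred on the summit, except the Hes5 promoter, which is the 250 bases before the start site from RefSeq (GRCm38.p6). Capitals mark short letter strings searched on both strands: GTGGGAA (RBPJ), CAGCTG (E-box), ACAAAG (SOX factors) and GGAATG (TEAD factors), and for some other regions TGANTCA (AP-1) and CACGTG (an E-box of Hes and Hey proteins). In the Hes5 promoter only the RBPJ string is marked.
Hes5 promoter, chr4:154960673-154960922, plus strand: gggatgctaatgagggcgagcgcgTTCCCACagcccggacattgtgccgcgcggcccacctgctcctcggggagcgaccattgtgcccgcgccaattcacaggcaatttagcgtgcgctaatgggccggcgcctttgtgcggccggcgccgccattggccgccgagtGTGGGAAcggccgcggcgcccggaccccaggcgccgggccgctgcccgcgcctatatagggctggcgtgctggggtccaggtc
Notch2:13, chr3:98105134-98105433, plus strand: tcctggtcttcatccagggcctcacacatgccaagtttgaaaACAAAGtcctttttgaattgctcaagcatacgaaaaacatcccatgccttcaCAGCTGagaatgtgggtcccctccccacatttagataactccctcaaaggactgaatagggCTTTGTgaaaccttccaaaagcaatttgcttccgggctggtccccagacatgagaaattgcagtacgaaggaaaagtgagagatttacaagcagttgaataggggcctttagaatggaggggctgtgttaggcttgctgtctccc
Notch2:14, chr3:98106714-98107013, plus strand: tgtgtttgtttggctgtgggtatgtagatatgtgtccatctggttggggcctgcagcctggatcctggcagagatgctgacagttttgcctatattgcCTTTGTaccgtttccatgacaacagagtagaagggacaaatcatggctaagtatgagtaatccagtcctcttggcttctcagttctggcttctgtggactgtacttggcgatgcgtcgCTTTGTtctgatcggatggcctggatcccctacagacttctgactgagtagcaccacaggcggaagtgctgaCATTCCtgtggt
Notch2:8, chr3:98033066-98033365, plus strand: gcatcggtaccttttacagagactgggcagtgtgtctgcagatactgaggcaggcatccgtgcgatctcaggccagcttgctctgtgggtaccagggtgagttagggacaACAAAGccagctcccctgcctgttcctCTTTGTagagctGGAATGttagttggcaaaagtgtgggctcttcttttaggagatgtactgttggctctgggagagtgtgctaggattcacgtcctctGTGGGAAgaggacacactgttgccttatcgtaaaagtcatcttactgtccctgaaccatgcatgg
Hes1:2, chr16:30022993-30023292, plus strand: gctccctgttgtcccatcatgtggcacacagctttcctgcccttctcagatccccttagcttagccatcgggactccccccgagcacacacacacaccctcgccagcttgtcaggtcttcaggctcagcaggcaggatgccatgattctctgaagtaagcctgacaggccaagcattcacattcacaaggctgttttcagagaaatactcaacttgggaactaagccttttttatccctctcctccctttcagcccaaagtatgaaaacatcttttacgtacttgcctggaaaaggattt
Hes1:5, chr16:30059349-30059648, plus strand: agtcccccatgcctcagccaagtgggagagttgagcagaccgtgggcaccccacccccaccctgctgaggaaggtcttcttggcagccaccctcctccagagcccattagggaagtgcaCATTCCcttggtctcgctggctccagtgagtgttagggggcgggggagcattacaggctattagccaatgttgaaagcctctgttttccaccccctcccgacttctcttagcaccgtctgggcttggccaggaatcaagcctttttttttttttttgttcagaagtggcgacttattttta
Hes5:2, chr4:154946411-154946710, plus strand: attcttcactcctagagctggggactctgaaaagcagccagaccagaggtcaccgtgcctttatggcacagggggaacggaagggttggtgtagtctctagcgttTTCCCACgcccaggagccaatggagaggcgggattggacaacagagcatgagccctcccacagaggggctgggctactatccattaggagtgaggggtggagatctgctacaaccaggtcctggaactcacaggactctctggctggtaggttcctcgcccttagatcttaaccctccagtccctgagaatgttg
Notch1:2, chr2:26423210-26423509, plus strand: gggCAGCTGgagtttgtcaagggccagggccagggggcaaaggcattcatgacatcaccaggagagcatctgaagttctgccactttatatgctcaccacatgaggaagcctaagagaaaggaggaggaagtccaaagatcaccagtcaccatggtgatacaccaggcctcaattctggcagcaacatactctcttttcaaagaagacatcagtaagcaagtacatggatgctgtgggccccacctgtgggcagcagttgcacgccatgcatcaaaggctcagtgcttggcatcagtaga
Dll1:4, chr17:15343098-15343397, plus strand: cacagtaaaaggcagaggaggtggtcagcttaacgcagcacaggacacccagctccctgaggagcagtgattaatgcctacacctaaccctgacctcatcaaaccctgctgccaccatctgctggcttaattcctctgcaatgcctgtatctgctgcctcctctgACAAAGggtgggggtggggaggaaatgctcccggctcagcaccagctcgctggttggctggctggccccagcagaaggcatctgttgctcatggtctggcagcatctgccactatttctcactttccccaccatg
The Hes5 promoter holds the RBPJ string 2 times, once on each strand. At least 1 such string stands in the upstream 250 bases of 5.42% of 32851 RefSeq promoters, and 2 or more stand in 0.161%. RefSeq promoters were at hand for 8 of the 10 genes, and those of the other 7 genes did not hold these letters. Hes1 and Hey1 had no entry. The 300-base windows on the summits at the start sites of Hes1, Hey1 and Rbpj each held the RBPJ string 1 time, and that at Hes5 held it 2 times. Notch2:13 and Notch2:14, which lie 1.58 kb apart in an intron of Notch2, hold an E-box with 2 SOX strings and a TEAD string with 2 SOX strings, respectively. Notch2:8 and Hes5:2 each hold 1 RBPJ string, and Hes1:2 holds none of the strings searched.

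At the region nearest to each start site no change was called. Notch1:17, farther out at 2.04 kb from the Notch1 start site, was called and is given below. Each of the 10 genes had a region within 1 kb of an annotated start site that carried a peak in all 10 libraries, and none passed the test of DIFF against PRO, as was so for most genes. For this comparison the highest fold enrichment of each region, the ratio of pileup to local background given by the peak caller, was ranked within its library and turned into a normal score. A region without a peak was tied at the bottom. One unit of change is 1 standard deviation of the normal distribution onto which the ranks of the 70627 tested regions were mapped. Because of the ties, the scores themselves spread less than that. The percentile given beside it is another scale, the rank of the peak among all peaks of its own list, with 100 the strongest.

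Among receptors, the start site of Notch2 (ENSMUSG00000027878, chr3:98013108-98014265) ranked highest of the 10, at a mean percentile of 89.2 ± 4.16 (SD, n = 10 libraries). Its fold enrichment was 13.6, 14.6 and 11.8 in WT PRO, 10.8, 12.1 and 11.3 in WT DIFF, 11.3 and 12.5 at PRO in p27KO and 12.9 and 11.5 at DIFF in p27KO. In WT only 1 PRO library reached into the DIFF range, and in p27KO the conditions overlapped. Notch3 stood at 63.5 ± 10.2 (SD, n = 10) and Notch1, the receptor best known for stem cell maintenance, at 44.2 ± 9.12 (SD, n = 10).

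Ligand start sites lay in the middle of the range. Dll3, a divergent ligand that acts inside the cell rather than on neighbours, had a mean percentile of 68.2 ± 9.24, Jag1 of 54.6 ± 8.02 and Dll1, which signals between neighbouring cells, of 51.3 ± 7.13 (SD, n = 10 each). The last 2 differed by less than their spread. Rbpj, with 5 annotated start sites, stood at 76.0 ± 3.82 (SD, n = 10).

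Among the targets, Hey1 ranked second of the 10 genes at 81.3 ± 2.97, Hes5 stood at 63.7 ± 4.67 and Hes1 ranked last at 44.0 ± 10.2 (SD, n = 10 each). At the Hes5 start site (chr4:154960412-154961526), which includes the promoter printed above, the fold enrichment was 6.47, 6.72 and 7.35 in WT PRO, 6.44, 6.19 and 6.87 in WT DIFF, 7.34 and 6.63 at PRO in p27KO and 7.34 and 9.04 at DIFF in p27KO. The Hes1 start site gave 4.91, 4.42 and 5.13 in WT PRO, 4.03, 6.02 and 4.63 in WT DIFF, 5.90 and 5.36 at PRO in p27KO and 4.96 and 5.43 at DIFF in p27KO. At both target genes PRO and DIFF overlapped in WT. Neighbours in the order of the 10 genes differed by less than either SD from Dll3 to Hes5 to Notch3 and from Jag1 to Dll1, Notch1 and Hes1.

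**Figure D1:**
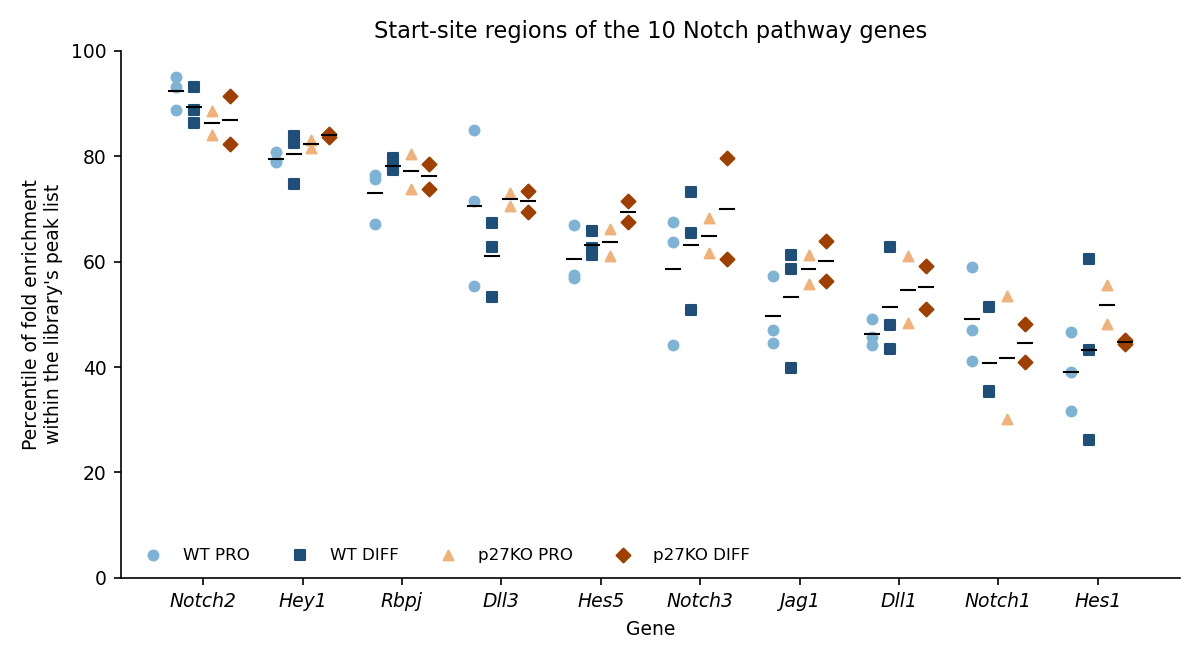
Percentile of fold enrichment (y axis, 0 to 100 within each library's peak list) at the start-site region of each gene (x axis), with 1 symbol per library and a bar at the group mean. Notch2 lies between 82.3 and 95.1 and Hes1 between 26.2 and 60.5, and the 4 groups of a gene largely overlap.

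Averaged over genotypes, the change from PRO to DIFF at these start sites ranged from 0.01 at Dll3 to 0.33 at Notch3. The limma test with Benjamini-Hochberg adjustment over all tested regions called 0 of 10, against 3.36% lower and 7.02% higher among the start-site regions of 13573 genes, and 1 of 10 had an unadjusted p under 0.05. None was called in any of 15 alternative settings. The largest change, at Notch3, was 0.33 ± 0.19 (SE) with a 95% interval of -0.08 to 0.74. At Dll1 the change was 0.30 with an interval of 0.00 to 0.59 and an adjusted p of 0.125 (limma). All 10 changes were positive in this fit, and the median over the start-site regions of all genes was 0.13. The mean fold enrichment went otherwise in WT, where it was higher at DIFF only at Dll1 and Hes1. In p27KO it was lower at DIFF only at Rbpj and Hes1. Scores are ranks with absent peaks tied at the bottom, so a positive change need not mean a higher fold enrichment. The sign of the change turned at Jag1 and Hes1 when regions were ranked by the −log10 p-value, and at Dll3 and Notch2 in other alternatives.

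No call was made at the nearest start-site regions of the rest of the pathway either. Of 46 further genes that make ligands, process receptors, or modify or transmit the signal, 43 had a tested start-site region, and 0 were called lower and 0 higher at DIFF (limma), with 5 at an unadjusted p under 0.05 and 0 to 2 called over 15 alternatives. The background is the one just given, 3.36% lower and 7.02% higher. Their median change was 0.14, and 32 of 43 were positive. Notch4, Hes2 and Heyl had no tested region at the start site. The highest values were 0.47 ± 0.19 (SE, adjusted p = 0.0932 by limma) at Maml3, a coactivator that binds the RBPJ complex, and 0.43 ± 0.20 (SE, adjusted p = 0.144 by limma) at Aph1c, a subunit of the gamma-secretase that cuts Notch. The lowest were -0.46 ± 0.19 (SE, adjusted p = 0.0914 by limma) at Fbxw7, a ubiquitin ligase subunit that marks the Notch intracellular domain for degradation, and -0.33 ± 0.21 (SE, adjusted p = 0.272 by limma) at Neurl1a, a ubiquitin ligase for ligands. Neurl1a, with a peak in 9 of 10 libraries, changed by -0.74 ± 0.26 (SE) in WT and by 0.09 ± 0.32 (SE) in p27KO.

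Over whole windows, start sites included, 25 of the 95 tested regions changed from PRO to DIFF averaged over genotypes. Of these, 9 fell, or 9.47% against a background of 14.5% of all tested regions, and 16 rose, or 16.8% against 13.5%. The calls followed distance from genes as they did in the whole genome. Within 3 kb of a protein-coding start site 4 of 30 regions were called (13.3%, background 12.5%), and farther away 21 of 65 were called (32.3%, background 32.7%). The share called was thus near the background in both classes. The median change over the 95 regions was 0.16, beside 0.04 over all tested regions.

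Over all tested regions 27.9% were called in either direction, and the counts below are read against that share. At the receptor genes 13 of 40 tested regions were called (32.5%). Notch1 had 7 called among 18 tested regions, Notch2 had 6 among 13, and Notch3 had 0 among 9, where changes ran from -0.07 to 0.35. At the ligand genes 5 of 26 were called (19.2%), with 3 of 8 regions at Dll1, 1 of 11 at Dll3 and 1 of 7 at Jag1. Rbpj had 2 of 8. At the target genes 5 of 21 were called (23.8%), where Hes5 had 3 of 10 and Hes1 2 of 7, while Hey1 had 0 of 4. Several windows reach over neighbouring genes. The called regions Notch1:3, Dll3:19 and Hes5:10 lie at start sites of Sec16a, Rps16 and Plch2, and no value here ties any region beyond a gene's own start site to that gene.

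**Figure D2:**
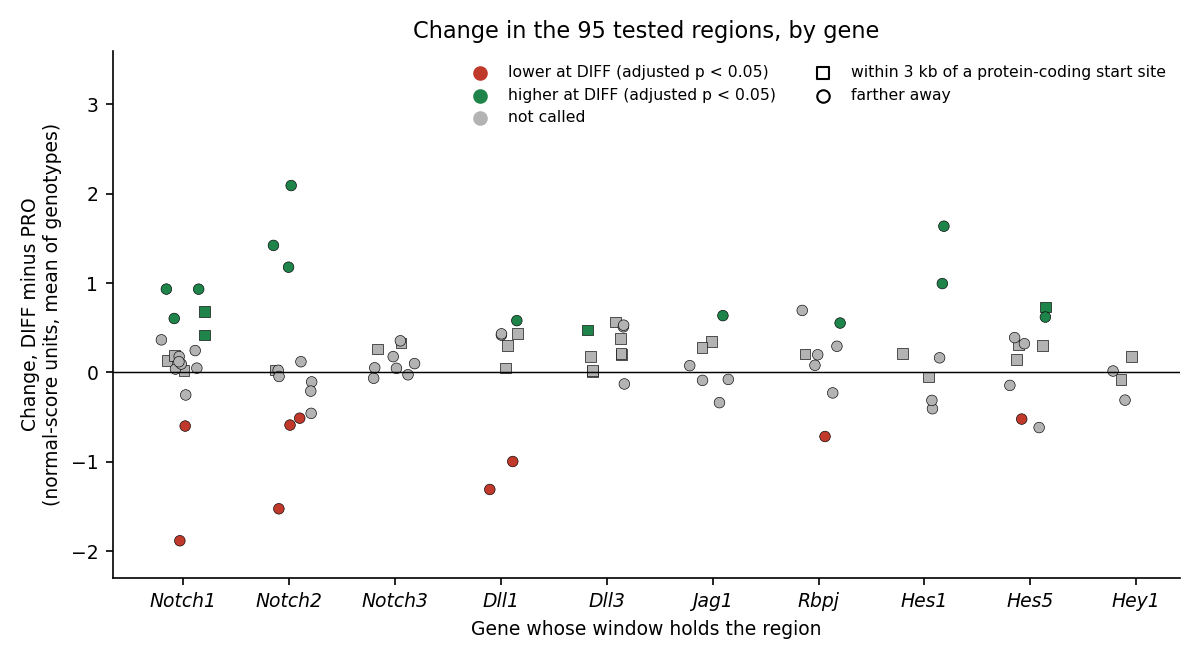
Change from PRO to DIFF averaged over genotypes (y axis, normal-score units) for the 95 tested regions, by the gene whose window holds them (x axis). Red and green mark the 9 regions lower and 16 higher at DIFF, and squares mark regions within 3 kb of any protein-coding start site. The changes beyond 1 unit are all circles, at Notch1, Notch2, Dll1 and Hes1.

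Notch2 carried the largest rise and one of the largest falls side by side. Notch2:13 (chr3:98104801-98105845) lies in an intron, 91.75 kb downstream of the start site. Its fold enrichment was 2.72, 2.42 and 2.73 in WT PRO and 7.26, 5.82 and 10.1 in WT DIFF libraries, and 3.34 and 3.17 at PRO in p27KO and 11.0 and 13 at DIFF in p27KO. Every DIFF library lay above every PRO library, in both genotypes. The mean percentile went from 1.56 ± 0.937 to 69.8 ± 11.8 in WT (SD, n = 3 each) and from 12 ± 4.52 to 86.2 ± 1.04 in p27KO (SD, n = 2 each). The change was 2.09 ± 0.13 (SE, adjusted p = 5.57e-06 by limma).

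Its neighbour Notch2:14 (chr3:98106377-98107195) moved the other way. Its fold enrichment was 15.1, 16.6 and 13.6 in WT PRO, 5.21, 4.53 and 8.36 in WT DIFF, 15.6 and 15.7 at PRO in p27KO and 5.79 and 6.79 at DIFF in p27KO. All PRO libraries lay above all DIFF libraries. The change was -1.53 ± 0.16 (SE, adjusted p = 4.91e-05 by limma). At PRO it ranked near the top of each list, at a mean percentile of 96.4 ± 2.13 in WT (SD, n = 3), and at DIFF it remained a peak in 5 of 5 libraries.

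Further elements at Notch2 moved in both directions. Notch2:8, an intronic region 19.68 kb into the gene with an RBPJ string, was listed in 2 of 3 libraries at PRO and 3 of 3 at DIFF in WT, went from 0 of 2 to 2 of 2 in p27KO, and rose by 1.18 ± 0.20 (SE). Notch2:17, beyond the gene's end, rose by 1.42 ± 0.25 (SE). Notch2:20, also beyond the end, fell by 0.59, from 10.1 to 12.6 over the 5 PRO libraries to 6.62 to 8.57 over the 5 DIFF libraries. The strongest region of the window, Notch2:9 at 29.71 kb, kept a mean percentile of 94.1 ± 1.93 (SD, n = 10) with a change of -0.11 (adjusted p = 0.58 by limma).

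**Figure D3:**
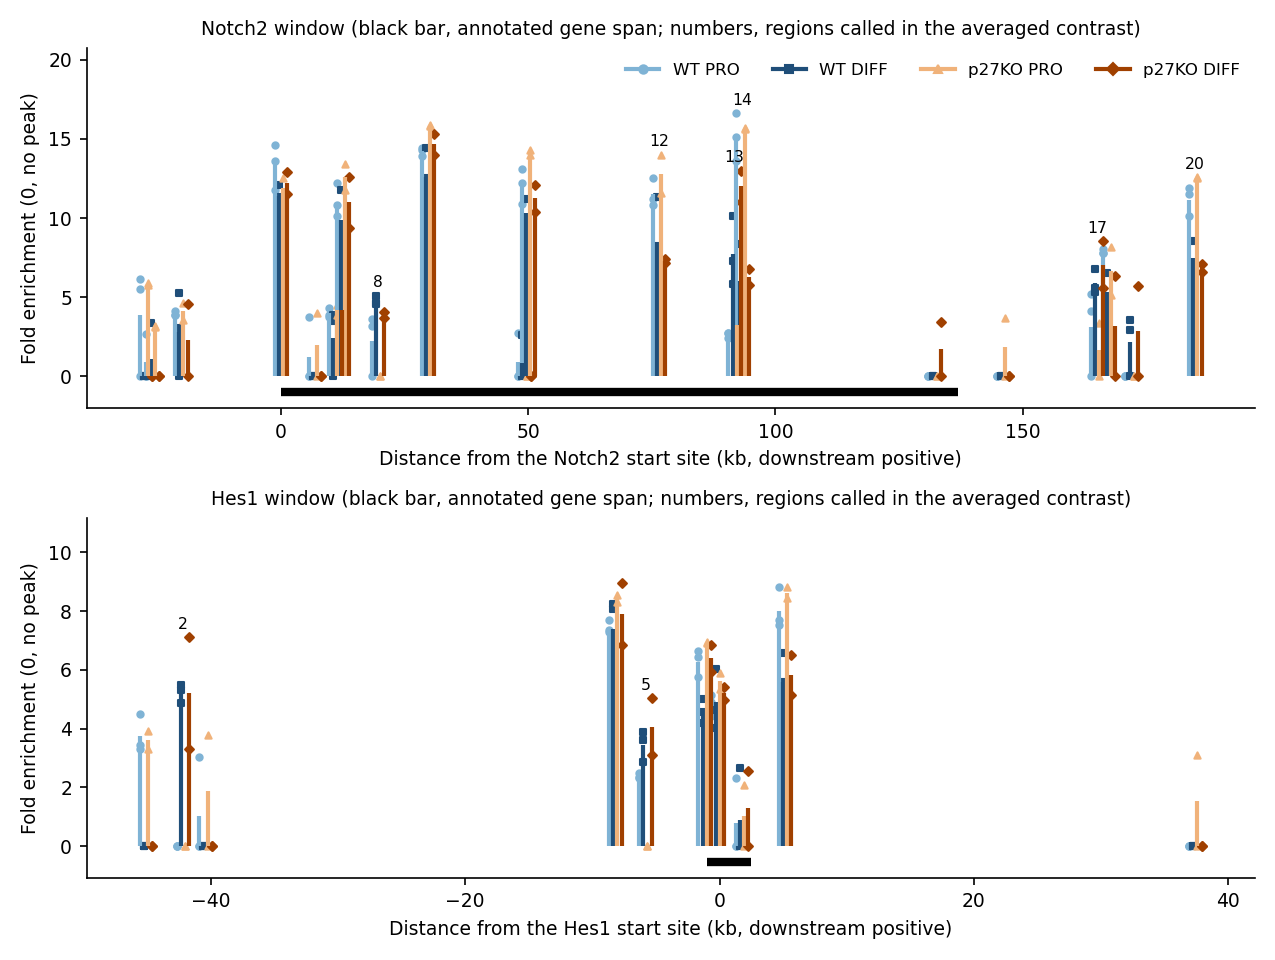
Fold enrichment (y axis, 0 where no peak was listed) of each region against the distance of its summit from the start site in kb (x axis) at Notch2 (top) and Hes1 (bottom). Lines give the group mean with libraries without a peak at 0, and symbols the libraries. The neighbours 13 and 14 of Notch2 moved in opposite directions, and Hes1 region 2 had a peak at DIFF only.

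At Notch1 the largest fall of all 95 regions was outside the gene. Notch1:2 (chr2:26422988-26423714) lies in the body of the neighbour Sec16a, a gene of vesicle export from the endoplasmic reticulum, 80.46 kb downstream of the Notch1 start site. Its fold enrichment was 10.2, 8.84 and 9.03 in WT PRO and 8.38 and 9.06 in p27KO PRO libraries, and it had no peak in any of the 5 DIFF libraries. The change was -1.88 ± 0.17 (SE, adjusted p = 2.0e-05 by limma). Notch1:2 reached the 5 libraries required for testing through PRO alone, and its DIFF libraries were tied at the bottom. The p-value therefore adds no support beyond the presence of peaks. Within Notch1, the intronic region Notch1:14 fell by 0.60 ± 0.20 (SE, adjusted p = 0.0442 by limma), and this call was lost in 10 of 14 alternatives.

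Rises at Notch1 were smaller. Notch1:28, 57.98 kb upstream and nearest to Egfl7, which encodes a secreted factor of blood vessels, rose by 0.93 ± 0.26 (SE), and its adjusted p went above 0.05 without p27KO PRO replicate 2 (0.0842 by limma) and without p27KO DIFF replicate 2 (0.0820 by limma). Notch1:7, over an exon near the gene's 3' end, also rose by 0.93 ± 0.19 (SE), listed in 1 of 3 libraries of either condition in WT and in 1 of 2 at PRO and 2 of 2 at DIFF in p27KO.

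At Dll1, 2 elements fell. Dll1:4 (chr17:15343060-15343866), 32.73 kb downstream of the start site between genes, had a fold enrichment of 6.93, 6.80 and 6.10 in WT PRO and 10.8 and 9.31 in p27KO PRO libraries. At DIFF it was listed in 1 of 3 WT libraries, at 3.81, and in 1 of 2 p27KO libraries, at 4.33, below every PRO value. The fall was -1.31 ± 0.21 (SE, adjusted p = 0.000843 by limma). Dll1:15, within Fam120b, had a peak in 5 of 5 PRO and 0 of 5 DIFF libraries and fell by 1.00 on the same scale (adjusted p = 0.00345 by limma). Dll1:15 was thus tested through its PRO peaks alone, and its p-value adds no support beyond the presence of peaks. Rbpj:2, in the annotated span of Rbpj but 84.94 kb upstream of its nearest start site, fell by 0.72 (adjusted p = 0.0102 by limma), with a peak in 5 of 5 PRO libraries, and at DIFF in 2 of 3 from WT and 0 of 2 from p27KO. That call was lost among the top 57000 peaks of each list (adjusted p = 0.106 by limma).

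At Hes1, whose start site ranked lowest, 2 distal elements rose. Hes1:2 (chr16:30022708-30023248) lies 42.20 kb upstream, within the annotated gene 9030404E10Rik. It had no peak in any of the 5 PRO libraries and a fold enrichment of 5.31, 4.86 and 5.50 in WT DIFF and 3.31 and 7.10 at DIFF in p27KO. The change was 1.64 ± 0.18 (SE, adjusted p = 7.03e-05 by limma). Hes1:2 reached the 5 libraries required for testing through DIFF alone, with PRO tied at the bottom. This p-value too adds no support beyond the presence of peaks. Its neighbour Hes1:1, 45.10 kb upstream, went the opposite way in presence, with a peak in 5 of 5 PRO and 0 of 5 DIFF libraries, but its enrichment was low, at 3.31 to 4.50, and its change of -0.41 ± 0.18 (SE) was not called (adjusted p = 0.117 by limma).

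Closer to the gene, Hes1:5 (chr16:30059376-30059601), 5.84 kb upstream, gave 2.32, 2.34 and 2.49 in WT PRO, 2.87, 3.63 and 3.88 in WT DIFF, no peak at PRO in p27KO and 3.09 and 5.03 at DIFF in p27KO. All DIFF libraries lay above all PRO libraries. The rise was 0.99 ± 0.15 (SE, adjusted p = 0.000594 by limma), at a low level throughout. At Hes5 the region at the start site of the neighbour Plch2, Hes5:10, rose by 0.73 ± 0.17 (SE), and Hes5:8, within Plch2, fell by 0.52 ± 0.16 (SE). The fold enrichment of Hes5:10 in WT was 4.65, 4.95 and 3.35 at PRO and 5.57, 4.48 and 5.70 at DIFF, which overlapped. In p27KO it was 4.45 and 3.00 at PRO and 4.83 and 5.17 at DIFF, which did not. The call at Hes5:8 was lost without WT PRO replicate 3, WT DIFF replicate 3, p27KO PRO replicate 2 or p27KO DIFF replicate 1, with adjusted p between 0.0506 and 0.117 (limma).

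**Figure D4:**
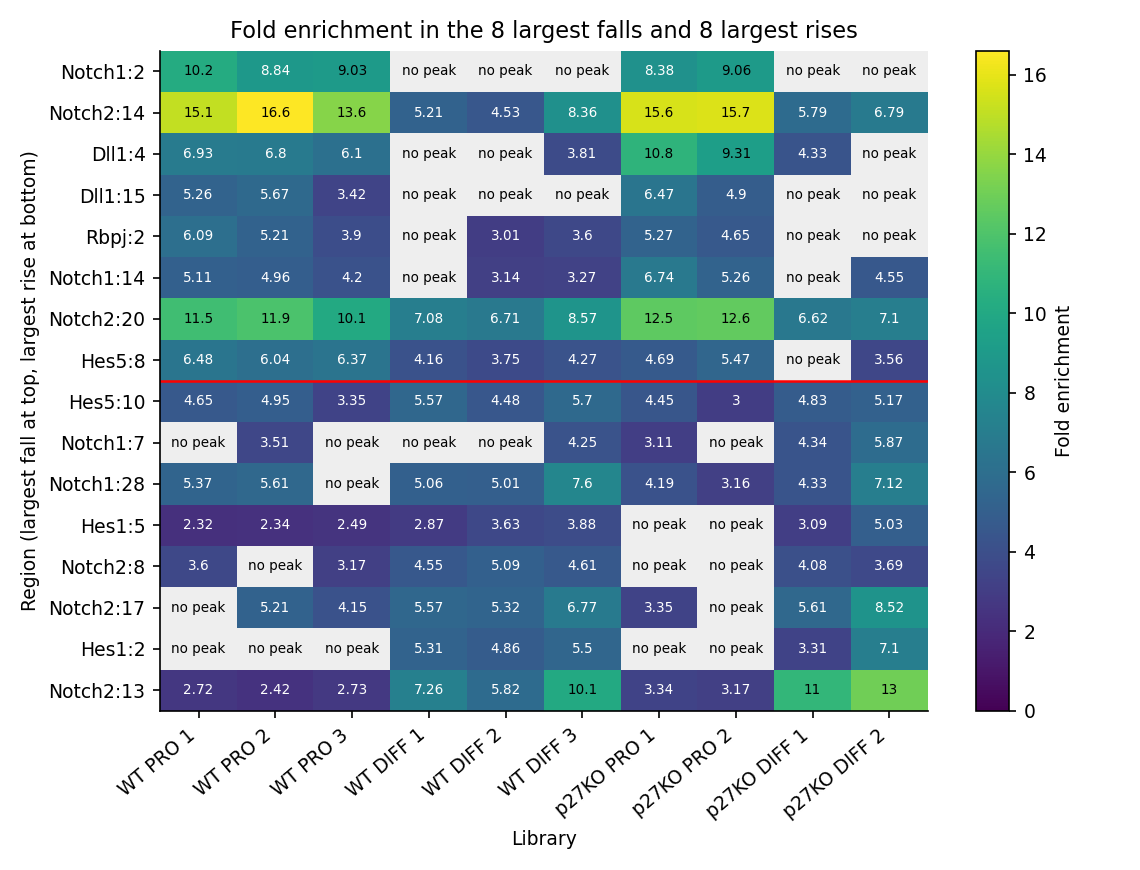
Fold enrichment (colour and printed value) in each library (x axis) for the 8 largest falls, above the red line, and the 8 largest rises, below it (y axis). Grey cells mark libraries without a peak. Notch2:14 goes from 13.6 to 16.6 at PRO to 4.53 to 8.36 at DIFF, and Notch2:13 from 2.42 to 3.34 at PRO to 5.82 to 13 at DIFF.

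The other 9 called regions, 8 higher and 1 lower, changed by 0.42 to 0.68 in size. Among them, Notch1:17, in an intron 2.04 kb downstream of the Notch1 start site, went from 0 of 3 libraries at PRO to 3 of 3 at DIFF in WT but was listed in all 4 p27KO libraries. Its fold enrichment was low, at 2.68, 3.11 and 2.49 in WT DIFF. In p27KO it was 2.22 and 2.3 at PRO and 2.93 and 2.28 at DIFF, which overlapped. These peaks ranked at percentile 7.7 or lower, where a missing peak may only be one not called at that depth. Jag1:5, an intronic region 6.61 kb downstream of the start site of this ligand, had fold enrichments of 3.87 to 4.55 over 5 PRO and 4.78 to 6.22 over 5 DIFF libraries, which did not overlap. Hes5:2, 14.36 kb upstream of the Hes5 start site, gave 3.82 and 3.34 in 2 of 3 WT PRO libraries and 3.32, 3.47 and 4.53 in WT DIFF. In p27KO its fold enrichment was 3.27 and 3.37 at PRO and 3.02 and 4.12 at DIFF. PRO and DIFF thus overlapped in both genotypes at Hes5:2, at a low level. These regions were chosen after their values were seen.

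The change was then taken in each genotype on its own. In WT, 4 regions were lower and 10 higher (4.21% and 10.5%), with backgrounds of 10.1% and 9.15%. In p27KO, 6 were lower and 7 higher (6.32% and 7.37%), with backgrounds of 6.48% and 5.83%. Of the 14 regions called in WT and the 13 in p27KO, 9 were called in both, 64.3% of the first and 69.2% of the second, and all 9 had the same sign. All 25 regions called on average had the same sign in both genotypes on the score scale, though the average was made from these same values. At 1 of them, Dll1:6, the score rose by 0.09 in WT while the mean fold enrichment went from 4.80 ± 0.58 at PRO to 4.09 ± 0.699 at DIFF (SD, n = 3 each). Across the 95 regions the changes in WT and p27KO had a Pearson r of 0.84, which describes regions that share their libraries and is no test.

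**Figure D5:**
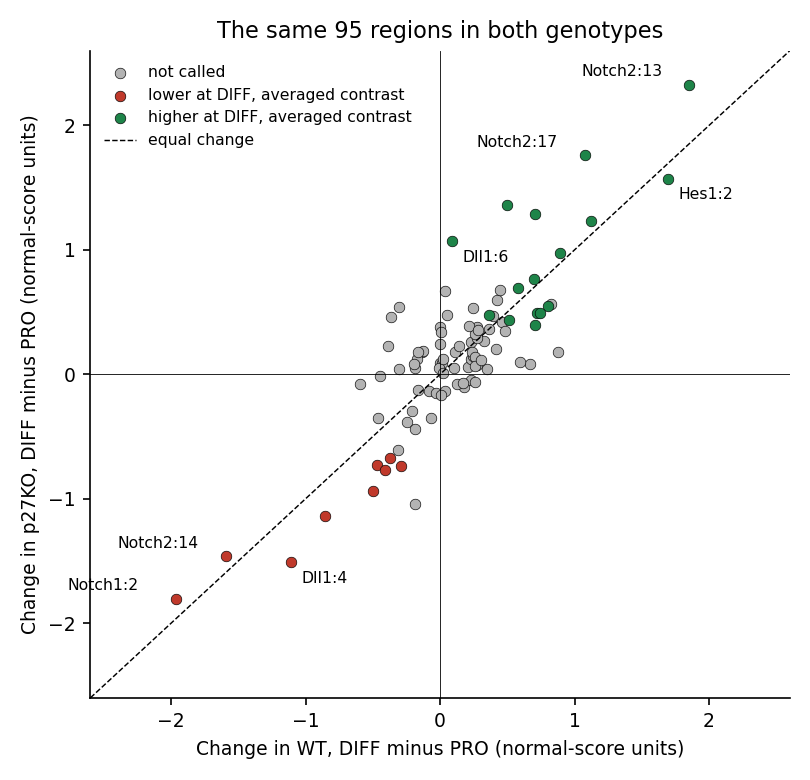
Change from PRO to DIFF in WT (x axis) and in p27KO (y axis), both in normal-score units, for the 95 tested regions, with equal change on the dashed line. The regions with large changes lie near the line in both directions, and Dll1:6, at 0.09 in WT and 1.07 in p27KO, lies farthest from it.

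Genotype itself gave no call at these genes. For the interaction, the difference between the changes in p27KO and WT, limma called 0 of 95 regions with 3 at an unadjusted p under 0.05, beside 0% of all tested regions. For p27KO against WT it called 0 at PRO (5 at an unadjusted p under 0.05, background 0.034%) and 0 at DIFF (4, background 0.0156%). The counts stayed at 0 in every alternative tried. The largest interaction was 0.99 at Dll1:6, with an unadjusted p of 0.0275 from limma and an adjusted p of 1.0. This region had fold enrichments of 5.26, 4.99 and 4.15 in WT PRO, 3.87, 3.52 and 4.87 in WT DIFF, 3.18 in 1 of 2 p27KO PRO libraries and 4.84 and 3.6 at DIFF in p27KO. The median SE of the interaction was 0.35, against 0.17 for the averaged change, so differences between genotypes were measured less precisely than the change itself.

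Counts of presence gave few regions that passed from all to none. In WT, 3 of 131 regions closed, with a peak in every PRO and no DIFF library (2.29%, background 4.32%), and 2 opened (1.53%, background 1.86%). In p27KO, 14 closed (10.7%, background 10.9%) and 5 opened (3.82%, background 3.32%). The p27KO counts rest on 2 libraries a condition, which is easier to meet than 3. The 3 regions closed in WT, Notch1:2, Dll1:15 and Hes1:1, were also closed in p27KO, and Hes1:2 opened in both. These 4 were the only regions to close or open by this rule in both genotypes.

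The letter strings were counted beside the whole set of regions. The RBPJ string stood in the 300-base window of 11 of 95 regions (11.6%), beside 6.75% of 70509 tested regions on assembled chromosomes. It was found in 0 of 9 regions that fell, 2 of 16 that rose and 9 of 70 not called. The shares over all regions of these classes were 6.78%, 7.7% and 6.56%, respectively. The AP-1 string, which stood in 26.6% of all regions that fell and 6.92% of those that rose, was found in 0 of 9 and 2 of 16 member regions, respectively. SOX strings stood in 31 of 95 regions (32.6%, beside 27.2%) and TEAD strings in 18 of 95 (18.9%, beside 18.9%). The CAGCTG and CACGTG strings stood in 22 and 6 of 95 (23.2% and 6.32%), beside 26.7% and 5.52%. A match of letters is not evidence that a factor binds there.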

How the data were processed

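ATAC-seq peak lists of 10 libraries were used, each from a single library. According to the study's methods and labels, the authors clipped reads with Cutadapt and Trimmomatic, used Bowtie2 with GRCm38, Picard for duplicates, and MACS2 for narrow peaks (no model, FDR 0.05). Versions and read shift are not given in the sources used here. The deposited fold enrichment is a ratio of pileup to local background, and the authors' lists also give a −log10 p-value and a −log10 q-value per peak. Groups follow the titles. In p27KO samples the description field speaks of WT cells. The labels and methods give 3 days in vitro for PRO, while another passage of the study names a longer time.

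Peaks overlapping by at least 1 bp were merged. The 70627 regions listed in 5 or more libraries entered a test on within-list ranks of the highest fold enrichment with limma 3.58.1 in R 4.3.3, with 4 group means, a shared spread and Benjamini-Hochberg adjustment at 0.05 over all tested regions. The study's read-based test needs alignments, which were not used here. Genes were placed with GENCODE M21 and sequences read from GRCm38.p6. The start-site region was the tested region nearest to an own start site within 3 kb. Named regions were these, the 8 largest falls and 8 largest rises among calls averaged over genotypes, and the 2 highest and 2 lowest of the other pathway genes. The test was also run on simulated normal scores. These had no tied absent peaks and no differences in list length, so that run does not cover those features. Alternatives ranked by the −log10 p-value, changed the number of libraries required, kept the top 57000 peaks of each list, fitted only the groups compared, added a replicate block, left out each library, or narrowed the window to 10 kb. The members, gene lists, letter strings and tests were chosen with earlier results of these data known.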

Additional observations from a re-analysis of the deposited data

How the results depend on the processing

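The 25 regions called on average numbered 18 to 24 when 1 library was left out, 12 when only regions with a peak in all 10 libraries were tested and 12 within 10 kb of the genes; both of the latter leave fewer regions to test. In WT, the 14 calls became 5 with peaks in all 10 libraries, 8 with only the groups compared, 6 within 10 kb and 8 to 14 without 1 library. In p27KO, the 13 calls became 3 with peaks in all 10 libraries, 8 among the top 57000 peaks, 7 within 10 kb and 6 to 14 without 1 library. The counts that depend most on one library in WT were those without WT PRO replicate 1 (8), WT PRO replicate 2 (8), WT DIFF replicate 1 (9) and WT DIFF replicate 2 (8), and in p27KO those without p27KO PRO replicate 1 (7), p27KO PRO replicate 2 (6), p27KO DIFF replicate 1 (8) and p27KO DIFF replicate 2 (8). A replicate block gave 25 calls on average, 12 in WT, 11 in p27KO and 0 in the interaction and between genotypes. Deviations from the group means gave r from -0.141 to 0.065 over 13 pairs of same-numbered samples. Over 24 pairs with other numbers r ran from -0.084 to 0.141. Deviations from a mean of 2 or 3 libraries are bound to each other, so these values cannot tell whether the numbers pair the samples.

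The regions closed in WT numbered 0 within 10 kb, 11 when a peak in at least 2 libraries of one condition and none of the other was enough, and 3 to 8 without 1 library, with 5 without WT PRO replicate 1, 8 without WT PRO replicate 3 and 6 without WT DIFF replicate 3. Those opened in WT numbered 5 among the top 57000 peaks, 1 within 10 kb, 6 under the looser rule and 2 to 5 without 1 library, with 5 without WT DIFF replicate 2. Those closed in p27KO numbered 7 among the top 57000 peaks, 4 within 10 kb and 16 to 20 without 1 library. Those opened in p27KO numbered 6 to 12 without 1 library, with 8 without p27KO PRO replicate 1, 12 without p27KO DIFF replicate 1 and 8 without p27KO DIFF replicate 2.

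At the 16 named regions, the direction held in all 224 pairs of region and alternative, and 17 of these lost the call: 11 were at Notch1:14 or Rbpj:2, 4 at Hes5:8 and 2 at Notch1:28. Each named region was counted only in the alternatives that tested it, 13 to 15 of them. Those lacking a peak in some library dropped out of the setting that required all 10. At start sites, changes turned sign in 10 of 150 pairs of region and alternative without passing the threshold, at Dll3 and Notch2, which were near 0, and at Jag1 and Hes1, which were not. Dll3 gave -0.051 with peaks in all 10 libraries and -0.102 to 0.122 without 1 library. Ranked by the −log10 p-value, Hes1 gave -0.026 and Jag1 -0.142. Notch2 gave -0.092 to 0.152 without 1 library. Ranks hide changes of total accessibility common to all regions, and list length sets where absent peaks are tied.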
